A study of Populus x canadensis with 4 samples.

Results

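Leaf microRNAs of the hybrid poplar Populus × euramericana 'Neva' were compared between plants given 8 mM para-hydroxybenzoic acid and untreated plants at 0 mM. Both groups were rooted cuttings, 90 days in water culture when the 3 days of treatment began, and 2 further libraries came from plants at 2 and 4 mM. Per the labels' protocols, RNA of plants of the same treatment was mixed, so that each dose is 1 library of pooled leaves. Of the 529 distinct sequences listed for the 4 libraries, the 350 whose normalized read count averaged 10 or more across these libraries were compared between 2 of them. Reads assigned to the table came to 5310499 at 8 mM and 2640653 at 0 mM. The spread between plants is not known, every ratio stands without a replicate check, and no p-value was computed. The leaf label could not be checked against marker transcripts, since the table lists small RNAs only.

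Plant microRNAs are cut from hairpin precursors by a Dicer-like enzyme as a duplex of both arms. One strand is loaded into an Argonaute protein and guides the cutting or silencing of messenger RNAs that it matches almost throughout, while the other strand is mostly degraded. Many families are shared by seed plants and act on transcription factors of development, others follow the supply of copper, phosphate or sulphate, and in poplars a large group acts on disease resistance genes. Para-hydroxybenzoic acid is a phenolic acid that is studied as a growth inhibitor left in soils of repeated poplar planting.

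The mature sequences that carry the main differences are shown first, as the file lists them, 5′ to 3′, with the seed (bases 2 to 8) in capitals. They are the most abundant guides against resistance genes, the guides of copper and phosphate supply, and developmental guides that differ between the libraries or between close relatives.
ptc-miR472a: tTTTCCCTactccacccatccc
ptc-miR472b: tTTTCCCAactccacccatccc
ptc-miR482a.1_L+5: tCTTGCCTactcctcccattcc
ptc-miR1448_L+1R+1: tCTTTCCAacgcctcccatacc
ptc-miR166a: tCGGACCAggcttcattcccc
ptc-miR156g: tTGACAGAagatagagagcac
ptc-miR156a: tGACAGAAgagagtgagcac
ptc-miR319a: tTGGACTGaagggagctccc
ptc-miR159a: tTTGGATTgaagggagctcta
ptc-miR396a: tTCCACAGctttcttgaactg
ptc-miR396c: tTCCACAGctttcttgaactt
ptc-miR398b: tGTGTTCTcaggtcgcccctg
ptc-miR408-3p: aTGCACTGcctcttccctggc
ptc-miR397a: tCATTGAGtgcagcgttgatg
ptc-miR1444a_R+1: tCCACATTcggtcaatgttcc
ptc-miR827: tTAGATGAccatcaacgaaaa
ptc-miR399b: tGCCAAAGgagatttgcccgg
ptc-miR399e: cGCCAAAGgagagttgccctc
ptc-miR399f: tGCCAAAGgagaattgccctg
ptc-miR168a-5p: tCGCTTGGtgcaggtcgggaa
ptc-miR162a: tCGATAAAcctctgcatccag
ptc-miR828a: tCTTGCTCaaatgagtattcca
ptc-miR3627b: tGTCGCAGgagagatggcgcta
csi-miR1515: tCATTTTTgcgtgcaatgatcc

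A second set is shown without capitals because it holds the opposite arms of such hairpins and a predicted candidate, several of which differ more between the libraries than the guides themselves.
ptc-MIR160a-p3: gcgtgcgaggagccaagcata
ptc-MIR396a-p3: gttcaataaagctgtgggaag
ptc-MIR164a-p3: cacgcgctcttcttctccaac
ptc-MIR164c-p3: cacgtgctccccttctccaac
ptc-MIR399b-p5: gggcaagcttccattggcatg
ptc-MIR399e-p5: ggcttctcttctttggcagg
PC-5p-44713_134: cttttctgccacattcatgcc

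Of the 350 sequences, 52 were at least 2-fold higher and 75 at least 2-fold lower at 8 mM than at 0 mM, which is 14.9% and 21.4% of them, and 223 lay between. The counts of each list and length below are to be read against these shares. Ratios were taken on log2(normalized read count + 1), and their median was -0.02 with quartiles at -0.82 and 0.65. Counting error alone, as an exact 95% interval from the raw counts, left 1 outside the interval for 46 of the 52 and 72 of the 75. The share past 2-fold was smaller at higher levels, as the plot of ratio against level shows. It was 81 sequences (34 higher, 47 lower) of 169 with a mean of 10 to 100 normalized reads, and 13 sequences (3 higher, 10 lower) of 80 with a mean of at least 1000. The authors' scaling leaves the summed normalized reads 1.32-fold higher at 8 mM. Setting both tables to equal totals would move every log2 ratio by -0.40, so that any sequence or family up to 1.32-fold higher would turn to lower. Leaving miR472, miR482 and miR1448 out of those totals would move it by -0.26, and a median of ratios by -0.01.

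**Figure D1:**
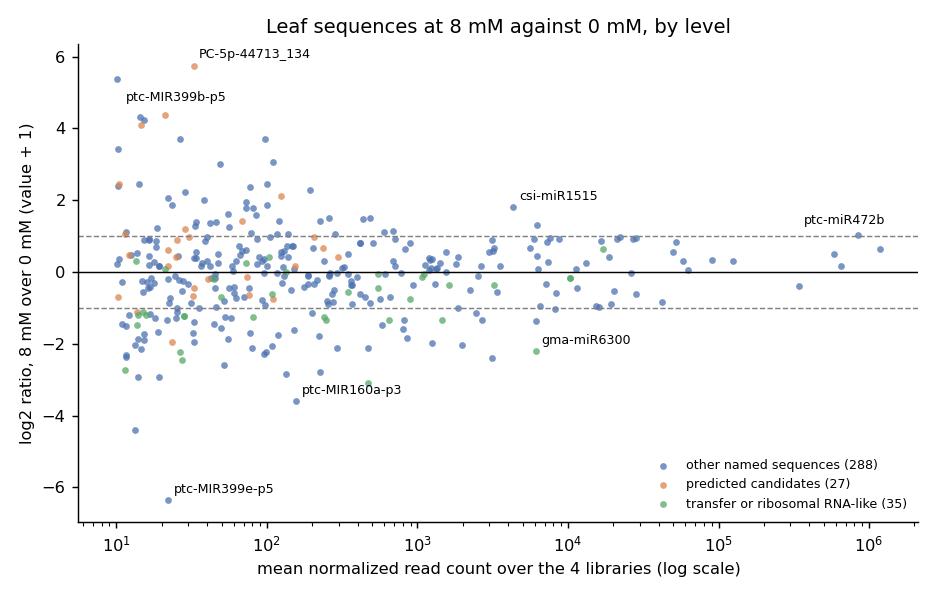
Log2 ratio of 8 mM over 0 mM (normalized read count + 1) against the mean normalized read count over the 4 libraries on a log axis, 1 point for each of the 350 sequences, with dashed lines at 2-fold. The points spread from -6.36 to 5.74, and those with a mean above 1000 lie mostly between the dashed lines (67 of 80).

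The filter lets in sequences that stood high at a single dose. Just inside it were ptc-MIR399b-p5, with a mean of 10.03, and bra-MIR824-p5_2ss5GT18TC, with 10.2, and just outside it were han-MIR3630-p5_2ss14GA17CA, with 9.55, and gma-miR403a_1ss21GT, with 9.39. Among the 350, 2 sequences had 0 reads at 8 mM and 9 had 0 reads at 0 mM. Such a listed 0 is replaced by 3 reads for a fold, which leaves 50 of the 52 at least 2-fold higher. That fold is not a lower limit, since it leaves out the counting error of the other library. The intervals given for such sequences were computed with the listed 0 itself. They are therefore not intervals of the fold with 3 reads and are too narrow for it. Those 3 reads are 2.67 normalized reads at 8 mM and 4.07 at 0 mM. Since 2 and 4 mM count in the mean, a sequence scarce at 0 mM can pass the filter through the treated libraries. With a filter on the 2 compared libraries alone, 44 of 350 sequences were at least 2-fold higher and 85 lower.

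The largest absolute differences belonged to guides of disease resistance genes. ptc-miR472a and ptc-miR472b, whose family acts on resistance genes of the NBS-LRR class (a nucleotide-binding site with leucine-rich repeats), were the first and second most abundant sequences at 8 mM. ptc-miR472a had 1249876 normalized reads at 8 mM and 798946 at 0 mM, 1.56-fold higher. ptc-miR472b had 922747 at 8 mM and 454856 at 0 mM, 2.03-fold higher with an interval of 2.02 to 2.04. Both had been higher still at 4 mM, with 1486719 and 1140347. The pair differs at 1 base, T8A counted from the 5′ end of ptc-miR472a, which is the last base of the seed, so each has a seed of its own.

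The other resistance guides differed among themselves. ptc-miR1448_L+1R+1 had 528241 normalized reads at 8 mM and 475115 at 0 mM, a 1.11-fold ratio that turns to lower with equal totals. ptc-miR482a.1_L+5 had 289761 at 8 mM and 377899 at 0 mM, 1.30-fold lower, which was the largest absolute fall of any sequence. ptc-miR482c-3p was 1.22-fold higher and ptc-miR482d-3p 1.04-fold higher, again not so with equal totals. The scarcer ptc-miR482b-3p, chosen after its values were seen, had 8508 at 8 mM and 4405 at 0 mM, 1.93-fold higher with an interval of 1.86 to 2.01. Of the 20 sequences of miR472, miR482, miR1448 and miR2118, 1 was at least 2-fold higher and 3 lower, with a median of 0.06 that becomes -0.34 with equal totals. Both shares lie below the 14.9% and 21.4% over all sequences. All 3 that were lower are arms opposite to abundant guides.

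Guides of the juvenile to adult change were lower. The list of miR156, miR157 and miR172 had 19 sequences, of which 0 were at least 2-fold higher and 7 lower, with a median of -0.83. Over all sequences 14.9% were higher and 21.4% lower, with a median of -0.02. At a mean of at least 100 the median was -0.35 over 11 sequences, with 4 lower. miR156 keeps plants juvenile by acting on SPL transcription factors, and its most abundant form, ptc-miR156g, had 39271 normalized reads at 8 mM and 69626 at 0 mM, 1.77-fold lower. ptc-miR156a, chosen after its values were seen, had 5116 at 8 mM and 13095 at 0 mM and was 2.56-fold lower. Not all members moved this way, since the opposite arm ptc-MIR156f-p3, also chosen after its values were seen, had 9430 at 8 mM and 5030 at 0 mM. The miR156 total was 1.57-fold lower. miR172, which acts on AP2-like transcription factors and marks the adult phase, came to 2185 at 8 mM and 1946 at 0 mM, a 1.12-fold ratio that turns to lower with equal totals.

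miR319 and miR159, which are related in sequence, differed. miR319 acts on TCP transcription factors of leaf growth, and ptc-miR319a had 255 normalized reads at 8 mM and 773 at 0 mM, 3.04-fold lower with an interval of 2.63 to 3.51. At 2 mM it had stood at 1970. miR159 acts on GAMYB-like transcription factors, and ptc-miR159a had 110966 at 8 mM and 87429 at 0 mM, a 1.27-fold ratio that turns to lower with equal totals. Of the 11 sequences of these families, 2 were at least 2-fold higher, both of miR159, and 4 lower, of which 3 were of miR319, with a median of -0.21. That median turns to 0.34 without a filter or at a mean of at least 100, and to 0.07 with a single row for each sequence.

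Guides of leaf shape and cell division stood higher or near equal with the authors' scaling. miR166 acts on class III HD-ZIP transcription factors that set the upper side of the leaf, and ptc-miR166a had 692480 normalized reads at 8 mM and 487394 at 0 mM, 1.42-fold higher. Of the 17 miR166 sequences 4 were at least 2-fold higher and 2 lower, with a median of 0.55, and with equal totals 4 were higher and 4 lower, with a median of 0.16. miR396 acts on growth-regulating factors of cell division, and its total was 1.28-fold higher, a ratio that turns to lower with equal totals. Of its 14 sequences 6 were at least 2-fold higher and 1 lower, with a median of 0.82, but at a mean of at least 100 the median was 0.11 over 11 sequences. With the filter on the 2 compared libraries alone, 5 of 13 miR396 sequences were higher and 1 lower, with a median of 0.68. Its main forms differ by 1 base, G21T from ptc-miR396a to ptc-miR396c, and did not move alike. ptc-miR396c had 28017 at 8 mM and 14489 at 0 mM, 1.93-fold higher with an interval of 1.89 to 1.98, whereas ptc-miR396a had 18774 at 8 mM and 19358 at 0 mM.

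Guides of the NF-YA subunits, the GRAS, the NAC and the F-box regulators gave smaller or mixed differences. miR169, which acts on NF-YA subunits, had 17 sequences, 2 at least 2-fold higher and 1 lower, with a median of 0.17 that becomes -0.21 with equal totals. Its most abundant form, ptc-miR169ac_R+2_1ss13AG, had 6100 normalized reads at 8 mM and 3221 at 0 mM. The 15 sequences of miR171, miR473 and miR477 had 1 higher and 3 lower and a median of -0.37. Their share lower is near the 21.4% over all sequences. ptc-miR473a-5p_R+1 had 5978 at 8 mM and 12334 at 0 mM, 2.06-fold lower. miR164 acts on NAC transcription factors of organ boundaries, and ptc-miR164a had 20752 at 8 mM and 31922 at 0 mM, 1.54-fold lower. ptc-miR394a-5p, whose family acts on an F-box gene, had 6777 at 8 mM and 5600 at 0 mM, a 1.21-fold ratio that turns to lower with equal totals. Of the 9 sequences of these last families 2 were at least 2-fold higher and 2 lower, with a median of -0.29.

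The auxin guides divided by family. miR167 acts on the response factors ARF6 and ARF8, and ptc-miR167f-5p_R+1 had 26324 normalized reads at 8 mM and 13903 at 0 mM, 1.89-fold higher. miR160 acts on another branch of these factors, and ptc-miR160a had 2721 at 8 mM and 4006 at 0 mM, 1.47-fold lower. ptc-miR390a, which starts the phased small RNAs against ARF3 and ARF4, was 1.54-fold lower, with 180 at 8 mM and 277 at 0 mM. miR393 acts on the TIR1 and AFB receptors, and ptc-miR393a-5p_R+1 had 11653 at 8 mM and 11032 at 0 mM, a 1.06-fold ratio that turns to lower with equal totals. Of the 33 sequences 3 were at least 2-fold higher and 5 lower, and the median of 0.13 becomes -0.27 with equal totals. Of the 5 lower ones, 4 are opposite arms of miR160 hairpins.

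The guides tied to copper were lower without exception among their family totals. Copper-linked microRNAs are known to accumulate when copper is scarce and act on copper proteins that can be spared. The total of miR397, which acts on laccases, was 496 normalized reads at 8 mM and 1278 at 0 mM, 2.58-fold lower with an interval of 2.32 to 2.87. miR408, which acts on plantacyanin and laccases, came to 10168 at 8 mM and 20063 at 0 mM, 1.97-fold lower. miR398, which acts on copper/zinc superoxide dismutases, came to 9461 at 8 mM and 17879 at 0 mM, 1.89-fold lower. miR1444, which acts on polyphenol oxidases in Populus, came to 21791 at 8 mM and 31971 at 0 mM, 1.47-fold lower. These 4 families had 17 sequences, of which 0 were at least 2-fold higher and 7 lower, with a median of -0.95. Over all sequences 14.9% were higher and 21.4% lower, with a median of -0.02. With equal totals 12 of the 17 were at least 2-fold lower, and at a mean of at least 100 it was 2 of 11. The direction did not follow the dose in steps. From 0 to 8 mM ptc-miR398b stood at 17252, 30505, 4321 and 8949, and ptc-miR408-3p at 18981, 29194, 6448 and 9728, so that 2 mM was highest and 4 mM lowest.

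The phosphate guides were lower except for 1 hairpin. ptc-miR827, which acts on phosphate transporters of the SPX type in other plants, had 255 normalized reads at 8 mM and 1115 at 0 mM, 4.37-fold lower with an interval of 3.82 to 5.02. miR399 acts on PHO2, a ubiquitin-conjugating enzyme that limits phosphate uptake, and its total was 147 at 8 mM and 419 at 0 mM, 2.85-fold lower. ptc-miR399f had 35.7 at 8 mM and 157 at 0 mM, 4.41-fold lower, and ptc-miR399e had 17.8 at 8 mM and 113 at 0 mM, 6.31-fold lower. ptc-miR399b, which differs from ptc-miR399f at T13A and G20T counted in ptc-miR399b, had 48.1 at 8 mM and 9.49 at 0 mM, from 54 raw reads at 8 mM and 7 at 0 mM. That is 5.07-fold higher with an interval of 2.30 to 13.2. Their opposite arms are scarce. ptc-MIR399e-p5 was read 0 times at 8 mM but 60 times in the untreated library. With 3 reads for the 0 that is 30.4-fold lower, and the interval computed with the listed 0 runs from 24.0 upwards. ptc-MIR399b-p5 had 45 reads at 8 mM and 0 in each of the other 3 libraries. It was 9.86-fold higher with 3 reads for the 0 at 0 mM, and the interval computed with the listed 0 runs from 7.69 upwards. The last arm passed the filter through the 8 mM library alone. Of the 7 phosphate sequences, 2 were at least 2-fold higher, ptc-miR399b and that arm, and 5 lower. The sulphate guide miR395 left 1 sequence past the filter, ptc-MIR395a-p5, with 18.7 normalized reads at 8 mM and 14.9 at 0 mM, which differed by less than counting error.

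**Figure D2:**
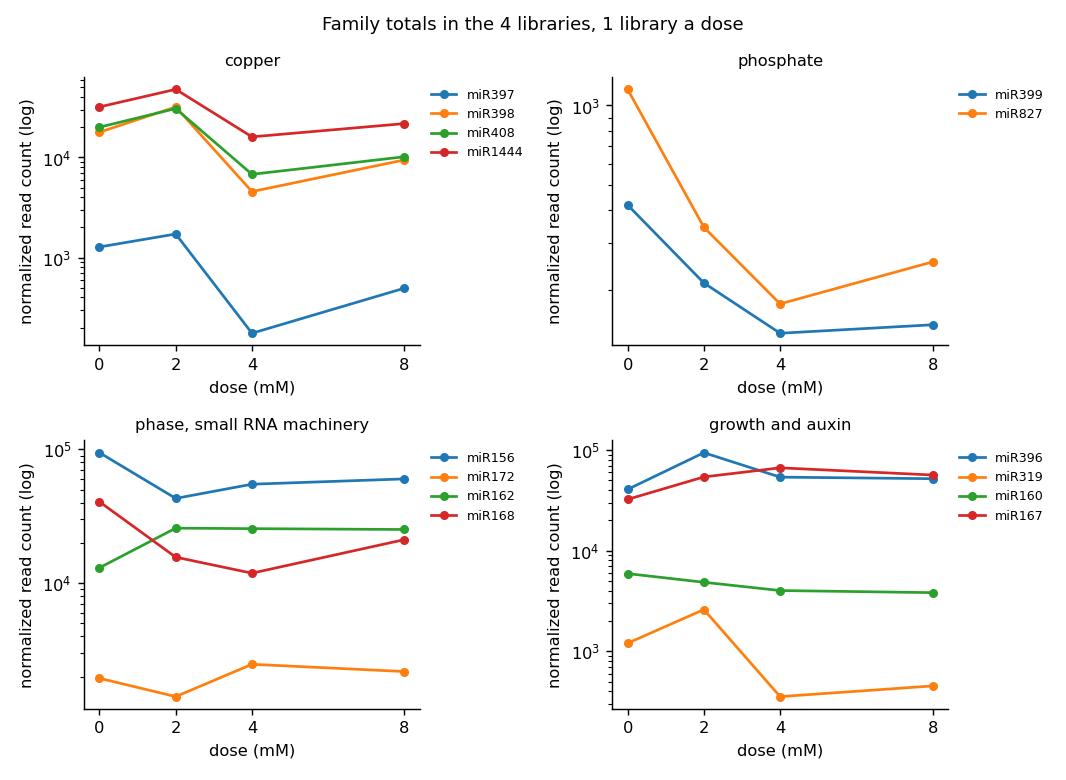
Family totals in normalized read counts on a log axis at 0, 2, 4 and 8 mM, 1 library a dose and so without error bars, for copper, phosphate, phase change with small RNA machinery, and growth with auxin. The 4 copper families end at 8 mM lower than at 0 mM after a high value at 2 mM, and miR827 and miR399 are below their 0 mM value at each dose.

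The small RNA machinery is itself controlled by microRNAs, and its guides differed in direction. ptc-miR168a-5p, which acts on AGO1, had 18996 normalized reads at 8 mM and 35066 at 0 mM, 1.85-fold lower with an interval of 1.81 to 1.88. ptc-miR162a, which acts on DCL1, had 24813 at 8 mM and 12726 at 0 mM, 1.95-fold higher with an interval of 1.90 to 2.00. miR403, which acts on AGO2, came to 5160 at 8 mM and 4272 at 0 mM, a 1.21-fold ratio that turns to lower with equal totals. Of the 15 sequences 1 was at least 2-fold higher and 4 lower, with a median of 0.18 that becomes -0.22 with equal totals.

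Guides of phenylpropanoid MYB factors also split. ptc-miR828a had 30.3 normalized reads at 8 mM and 100 at 0 mM, 3.31-fold lower with an interval of 2.18 to 5.13. ath-miR858a_L-1R+1 had 1635 at 8 mM and 1644 at 0 mM. The poplar families miR475 and miR476, which act on pentatricopeptide repeat genes of the organelles, had 2 of 8 sequences at least 2-fold higher and 0 lower, with a median of 0.57. ptc-miR475a-3p had 25494 at 8 mM and 13398 at 0 mM, 1.90-fold higher. Among 24 sequences of further families, most of which are known mainly from poplars, 9 were at least 2-fold higher and 1 lower, with a median of 0.83. Of the 9, 5 belonged to miR481 and 3 to miR530. The other is ptc-MIR7836-p3, with 5 reads at 8 mM and 0 at 0 mM, which is not past 2-fold where a listed 0 counts as 3 reads. With the filter on the 2 compared libraries alone, 7 of 22 were at least 2-fold higher and 1 lower, with a median of 0.77. The exception, ptc-miR3627b, had 56.2 at 8 mM and 397 at 0 mM and was 7.08-fold lower, while the related ptc-miR3627a_R+1, chosen after its values were seen, had 59.7 at 8 mM and 32.5 at 0 mM. ptc-miR1446a_R+1 had 64582 at 8 mM and 35998 at 0 mM, 1.79-fold higher, and ptc-miR1450_R-1 had 62963 at 8 mM and 51421 at 0 mM, a 1.22-fold ratio that turns to lower with equal totals.

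Summed by family number, 87 families passed the same filter. Of them 9 were at least 2-fold higher and 16 lower, which is 10.3% and 18.4%. The 9 include miR7836, which had 5 reads at 8 mM and 0 at 0 mM, so that 8 are left where a listed 0 counts as 3 reads. Of the 87 families, 18 change direction with 1 or more of the 3 scalings. Beside those above, csi-miR1515, whose family is tied to gene silencing factors in other plants, had 5637 normalized reads at 8 mM and 1607 at 0 mM, 3.51-fold higher with an interval of 3.30 to 3.73. It was the largest relative increase among sequences with a mean of at least 1000. The widest ratios lay among scarce sequences. PC-5p-44713_134, a predicted candidate, was read 59 times at 8 mM but 0 times in the untreated library. With 3 reads for the 0 that is 12.9-fold higher, and the interval computed with the listed 0 runs from 10.2 upwards. The normalized reads of this candidate were 7.89 at 2 mM and 70.0 at 4 mM. The 27 candidates that passed the filter had 8 at least 2-fold higher and 2 lower, with a median of 0.47, and 6 higher and 6 lower with a median of 0.12 with equal totals. Over all sequences 14.9% were higher and 21.4% lower. Where a listed 0 counts as 3 reads, 7 of the candidates were higher. Some candidates not read at 0 mM passed the filter through the treated libraries. With the filter on the 2 compared libraries alone, 23 candidates passed, 5 of them higher and 3 lower, with a median of 0.42. PC-3p-70722_70 and PC-3p-102599_40 had 19.6 and 16.0 normalized reads at 8 mM and were not read in the untreated library. With 3 reads for the 0 that is 4.82-fold and 3.94-fold higher. The intervals computed with the listed 0 run from 3.60 and 2.89 upwards. gma-MIR4995-p3_1ss19GC had 112 reads at 8 mM and 5 at 0 mM, 14.7-fold higher with an interval of 6.12 to 46.2. ptc-MIR475c-p5 had 38.3 normalized reads at 8 mM and 2.03 at 0 mM, an 18.8-fold ratio with an interval of 3.68 to 120. Of further scarce sequences among the highest ratios, hex-MIR390b-p5_2ss8AG21GT and mdm-MIR396d-p3 had 18.7 and 9.80 at 8 mM, from 21 and 11 reads, and were not read in the untreated library. ptc-MIR481c-p5_1ss23AG had 41.9 at 8 mM and 6.78 at 0 mM, 6.18-fold higher. Among the lowest, aau-miR168_L-3R-1_1ss22AT had 4.46 at 8 mM and 40.7 at 0 mM, ath-miR8175_L-1_1ss2AT had 4.46 at 8 mM and 35.3 at 0 mM, and gma-miR6300_1ss18GC had 11.6 at 8 mM and 67.8 at 0 mM.

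**Figure D3:**
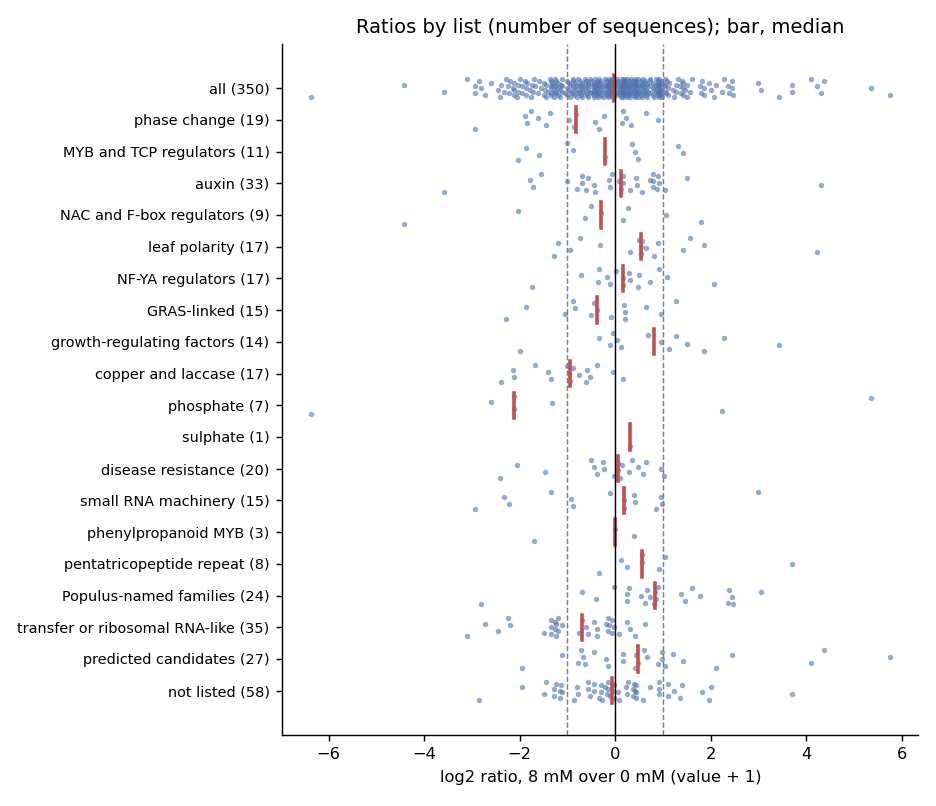
Log2 ratios of 8 mM over 0 mM (normalized read count + 1) by list, 1 point for each sequence and a red bar at the median, with the number of sequences in parentheses and dashed lines at 2-fold. The phosphate, copper and phase change lists have the lowest medians, at -2.11, -0.95 and -0.83, against -0.02 for all. The Populus-named list, most of whose families are known mainly from poplars, and the growth-regulating factors have the highest, at 0.83 and 0.82.

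The less abundant arms of the hairpins were more often lower at 8 mM, relative to 0 mM, than their more abundant partners. An arm named for its side of a Populus hairpin was paired with a more abundant sequence of its family, of the same hairpin letter where one paired, if at least 15 bases paired with the 3′ ends hanging over by 1 to 4 bases. This gave 49 pairs with 36 different partners from 25 families, of which 27 pairs share a hairpin letter and 22 join an arm to another member of its family. The ratio of the less abundant arm was below that of its partner in 36 pairs and above it in 13, with a median difference of -0.91 on the log2 scale. Among the 27 pairs of the same letter it was below in 20 and above in 7, with a median difference of -0.99. Both arms come from the same libraries, so that their difference hardly depends on the scaling. Differences of at least 1 were found in 23 pairs towards lower and in 7 towards higher. Among the 25 arms with a mean of at least 100, 21 were below their partner.

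The shares give the same pairs directly. ptc-MIR160a-p3 stood at 1.47% of ptc-miR160a at 8 mM and at 12.4% at 0 mM, with 45 raw reads at 8 mM and 365 at 0 mM. ptc-MIR396a-p3 stood at 4.05% of ptc-miR396a at 8 mM and 15.6% at 0 mM. ptc-MIR166a-p5, chosen after its values were seen, stood at 0.836% of ptc-miR166a at 8 mM and 2.28% at 0 mM, so that the arm had 5787 normalized reads at 8 mM and 11101 at 0 mM while its guide was higher at 8 mM. Hairpins of 1 family could differ. ptc-MIR164c-p3 was read 0 times at 8 mM but 15 times in the untreated library. With 3 reads for the 0 that is 7.61-fold lower, and the interval computed with the listed 0 runs from 5.46 upwards. In contrast, ptc-MIR164a-p3 had 77.5 normalized reads at 8 mM and 21.7 at 0 mM, 3.57-fold higher with an interval of 2.08 to 6.53. The 2 arms are alike in sequence, as printed above, and both were paired with ptc-miR164a.

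**Figure D4:**
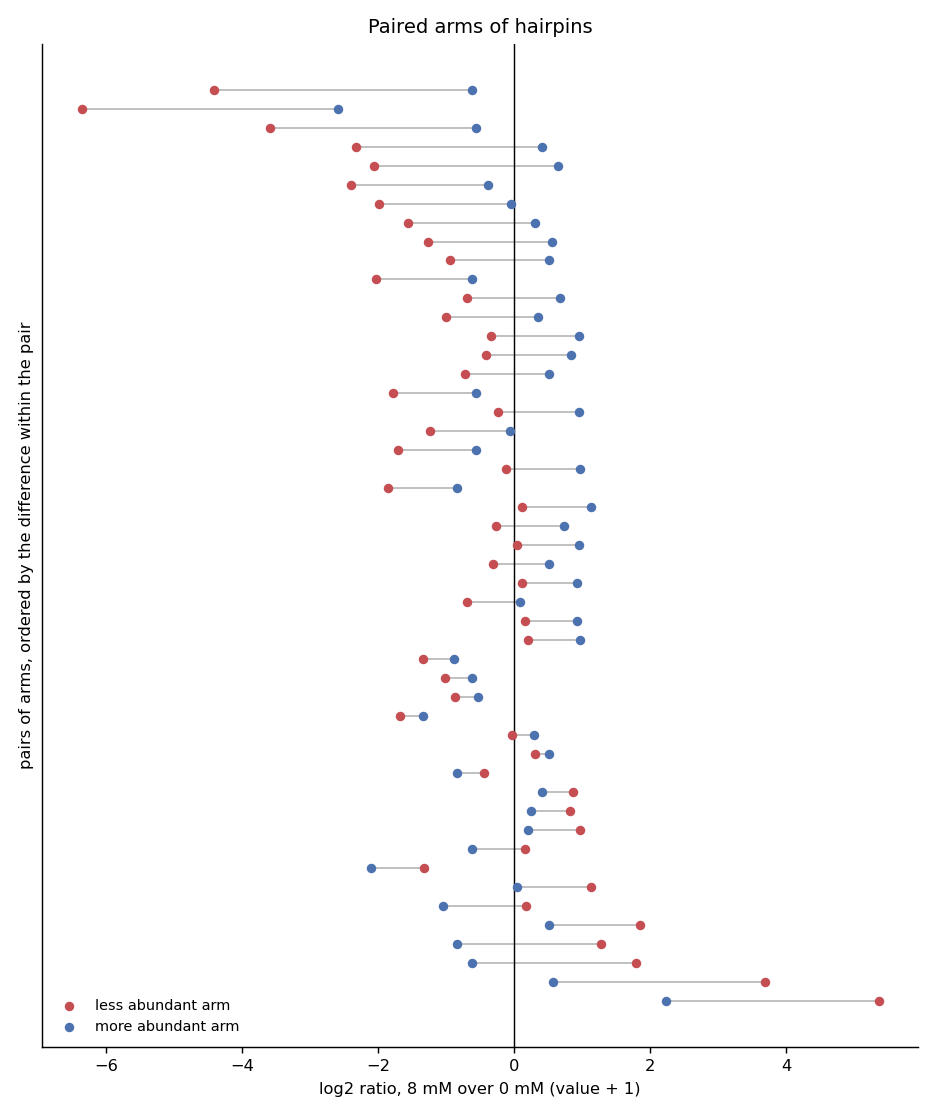
Log2 ratios of 8 mM over 0 mM (normalized read count + 1) for 49 pairs of hairpin arms, ordered by the difference within the pair, with the less abundant arm in red and the more abundant arm in blue. The red point lies to the left of the blue one in 36 pairs and to its right in 13.

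The ratio of single sequences also tended to rise with their length, up to 24 nt. Of 57 sequences of 18 to 20 nt, 1 was at least 2-fold higher and 29 lower, with a median of -1.02. Of 168 of 21 nt 23 were higher and 33 lower, with a median of -0.08, near the 14.9% and 21.4% over all sequences. Of 66 of 22 nt 9 were higher and 9 lower, with a median of 0.22. Of 59 sequences of 23 to 25 nt 19 were higher and 4 lower, with a median of 0.43. At 25 nt alone the median was -0.06 over 9 sequences. Equal totals, which move log2 ratios by -0.40, would take up most of the 0.43. Of all reads, sequences of 23 nt took up 0.612% at 8 mM and 0.787% at 0 mM, and those of 24 nt 0.109% and 0.161%. Fragments of transfer and ribosomal RNA lie among the short ones. Of the 35 sequences of families that resemble them, 0 were at least 2-fold higher and 16 lower, with a median of -0.69. Without these families and the candidates, 18 to 20 nt still had 1 higher and 15 lower of 39, and 24 nt had 10 higher and 2 lower of 16, with a median of 1.78. Those 16 were scarce, with 759 normalized reads in all at 8 mM and 355 at 0 mM. Some passed the filter largely through the 2 and 4 mM libraries. ptc-MIR481d-p5 had 6.78 normalized reads at 0 mM, 166 at 2 mM and 202 at 4 mM. mtr-miR166c_L+5R-2 had 0 at 0 mM, 19.7 at 2 mM and 23.7 at 4 mM. How far the filter shapes the counts by length was not tested. The part of RNA quality in these differences was not tested.

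Series of fragments that share an end show the same by length. miR6300 and miR8175, listed as microRNAs in other plants, resemble the 5′ and 3′ ends of an aspartate transfer RNA. The first 7 bases of gma-miR6300 pair, 1 of them as G with T, with the 7 before the last 4 bases of ath-miR8175, as the ends of the acceptor stem of a transfer RNA do. A few forms are shown because the capitals, bases beyond the shared 18 in the first set and the final CCA in the second, mark what differs or what is typical of the end of a transfer RNA.
gma-miR6300: gtcgttgtagtatagtgg
gma-miR6300_R+3: gtcgttgtagtatagtggTGA
gma-miR6300_R+5_2: gtcgttgtagtatagtggTGAGT
gma-miR6300_R+7_2: gtcgttgtagtatagtggTGAGTAT
ath-miR8175_L-2: tccccggcaacggcgCCA
ath-miR8175: gatccccggcaacggcgCCA
ath-miR8175_L+2_1ss4AT: tcgttccccggcaacggcgCCA

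The shortest forms had the lowest ratios of 8 mM to 0 mM. gma-miR6300, of 18 nt, had 3558 normalized reads at 8 mM and 16341 at 0 mM, 4.59-fold lower. At 2 and 4 mM it had 1512 and 3195, so that it stood high in the untreated library alone. The forms with the same start had log2 ratios of -1.26 at 19 nt, -1.34 at 20 nt, -1.33 at 21 nt, -0.44 at 22 nt, -0.16 at 23 nt, -0.37 at 24 nt and -0.06 at 25 nt. Forms of at most 20 nt made up 13.1% of the reads of these 13 sequences at 8 mM (Wilson 95% interval 12.8 to 13.5) and 35.1% at 0 mM (34.6 to 35.5). At the other end ath-miR8175_L-2, of 18 nt, had 152 normalized reads at 8 mM and 1310 at 0 mM, a log2 ratio of -3.10, whereas the form of 22 nt had 122 at 8 mM and 123 at 0 mM. ath-miR8175_L-2 too was high in the untreated library alone, with 281 at 2 mM and 137 at 4 mM. Some of these names hold equal values in every library, as reads divided between names would. Not every RNA-like sequence was lower, since gma-MIR5368-p3_1ss16CT, the most abundant of a family that resembles ribosomal RNA, had 20238 at 8 mM and 13067 at 0 mM.

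**Figure D5:**
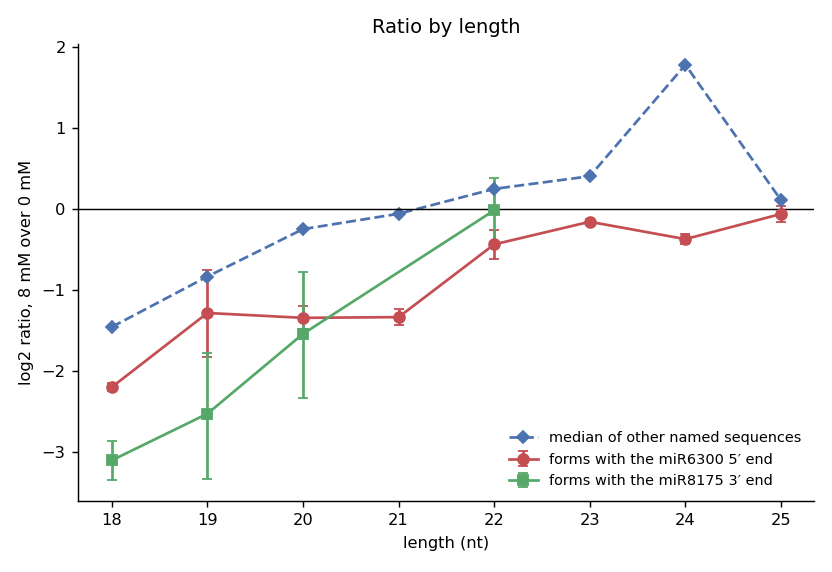
Log2 ratio of 8 mM over 0 mM by length for forms with the 5′ end of miR6300 (red, summed by length, bars give exact 95% counting intervals), forms with the 3′ end of miR8175 (green, same) and the median of the other named sequences without candidates (blue). All 3 lines are lowest at 18 nt, at -2.20, -3.10 and -1.46.

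Among microRNAs too, longer forms tended to stand higher than the shorter form that they contain, mainly where bases were added at the 5′ end. Of 53 longer forms set against a more abundant shorter core, 38 had the higher ratio and 15 the lower, with a median difference of 0.48. Without the transfer and ribosomal RNA-like families it was 24 and 11 of 35, with 26 different cores, so that some cores count more than once. Among these, bases added at the 5′ end gave 13 and 3. Bases added at the 3′ end gave 10 and 8, with a median difference of 0.07. Outside the RNA-like families, the widest differences were those of mtr-miR166c_L+5R-2, read 20 times at 8 mM but 0 times in the untreated library, and of hpe-miR162a_R+3, which had 82.9 normalized reads at 8 mM and 9.49 at 0 mM while ptc-miR162a differed by 1.95-fold. In the other direction nta-miR156a_R+2 had 4.46 at 8 mM and 40.7 at 0 mM, 9.13-fold lower, against 2.56-fold for ptc-miR156a.

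Sequences with the same seed differed in how closely they kept together. The 350 sequences hold 267 seeds, of which 19 are shared by at least 3 sequences. The log2 ratios within a seed spanned less than 1 in 7 of the 19 and at least 2 in 5 of them. The seed of miR167, GAAGCTG, had 7 sequences between 0.45 and 0.92, and that of miR397, CATTGAG, 3 between -1.40 and -1.02. The widest was that of miR399, GCCAAAG, from -2.59 to 2.23, followed by GAATGTT of the miR166 opposite arms, from -1.20 to 1.86. The miR396 seed TCCACAG ran from -0.10 to 2.28. By first base, the 171 sequences that begin with T had a median of 0.29, and those with A, C and G -0.16, -0.36 and -0.30. With equal totals the median for T would also be below 0. Sequences beginning with T took up 97.2% of reads in the 8 mM library and 94.7% in the untreated one.

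Some sequences named as microRNAs carry motifs of repeats, and a pair of predicted candidates differs at 1 base. All were chosen after their values were seen. Capitals mark the complementary run in the first pair, the repeat in the third sequence and the differing base in the candidates.
gma-miR1511_R-2: aaccAGGCTCTGATACCA
ptc-MIR481d-p5: ttctttgacaTGGTATCAGAGCCT
stu-MIR8005c-p5_1ss11AG: agggTTTAGGGTTTAGGGtttagg
PC-5p-25553_269: aagtgggtcacacGagccgtcca
PC-5p-46215_128: aagtgggtcacacAagccgtcca

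The capitals of the first pair are complementary over 14 bases up to the 3′ end of gma-miR1511_R-2, which ends in CCA as a transfer RNA does. TGGTATCAGAGC is known as the binding site of a methionine transfer RNA primer in plant retrotransposons. The run was found, on either strand, in 4 of the 529 sequences, 3 of them forms of miR1511. The 2 sides went opposite ways. gma-miR1511_R-2 had 52.6 normalized reads at 8 mM and 385 at 0 mM, 7.32-fold lower with an interval of 5.52 to 9.87. ptc-MIR481d-p5 had 63.7 at 8 mM and 6.78 at 0 mM, 9.40-fold higher with an interval of 3.87 to 30.03, and had stood at 166 and 202 at 2 and 4 mM. The miR481 total was 343 at 8 mM and 113 at 0 mM, 3.05-fold higher.

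stu-MIR8005c-p5_1ss11AG holds 2 copies of TTTAGGG, the repeat of plant telomeres. It had 71.3 normalized reads at 8 mM and 17.6 at 0 mM, 4.04-fold higher with an interval of 2.24 to 7.92. TTTAGGG was found, on either strand, in 11 of the 529 sequences, of which it alone passed the filter. The 2 candidates differ at 1 base, G14A, and both were higher. PC-5p-25553_269 had 109 at 8 mM and 24.4 at 0 mM, and PC-5p-46215_128 had 56.2 at 8 mM and 20.3 at 0 mM.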

How the data were processed

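Small RNA of leaves was sequenced in 4 libraries, 1 for each dose. Per the submitters' processing notes, bcl2fastq 1.8.4 was among the tools. Which mapper, build and miRNA annotation were used is not given in the sources used here. Raw columns, as deposited, hold estimated counts, some of them fractional. In the deposited normalized columns, a linear signal, each library's raw counts were multiplied by a single factor, 0.891 at 8 mM and 1.356 at 0 mM. The 738 rows were summed for each distinct sequence, and where a sequence had several names a Populus trichocarpa name came first, so that 29 kept sequences have further names. Name endings like _L-2 or 1ss16CT are taken as a changed end or base, and families were taken from the number in the name, so near-identical copies cannot be separated.

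Log2 ratios used a pseudocount of 1. Folds are plain ratios of normalized values with exact conditional binomial 95% intervals from the raw counts, and shares have Wilson intervals. They cover counting error only, since reads without molecular identifiers are not independent molecules. Python 3.11.15 with numpy 2.4.6, pandas 2.3.3, scipy 1.17.1, statsmodels 0.14.6 and matplotlib 3.10.9 was used, and the code was tested on simulated data. Members, lists and comparisons were chosen with earlier results of these data known. Sequences were named from among the 12 highest and 12 lowest ratios, the 10 most abundant sequences at 8 mM, the 6 largest differences in each direction, each listed family's most abundant member, the widest arm, end and seed groups and the sequences at the filter; 1 of them is not reported here, and others are said to be chosen after their values were seen. The preference for a partner of the same hairpin letter was set after the values were seen. Scalings, pseudocounts, filters and the use of a single row were tried as alternatives, and counting a listed 0 as 3 reads was added after the data were seen.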

Additional observations from a re-analysis of the deposited data

Results flagged for a closer look

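Sequences under the filter were left out of the comparison, and 7 of them had 0 reads at 0 mM and at least 10 normalized reads at 8 mM, above the 4.07 that a count of 0 allows at 0 mM. ptc-miR6447 had 16.04 at 8 mM, from 18 raw reads, and hbr-MIR6484-p3_2ss10TG20TG and gma-miR403a_1ss21GT had 15.2 each. ptc-MIR169x-p3_1ss10TC had 14.3 at 8 mM and 0 in the other 3 libraries. gra-MIR8674b-p3_2ss11TC18AC, which holds the telomere repeat, had 12.5, ptc-MIR6426a-p3 had 11.6 and ptc-MIR164b-p3 had 10.7. Of all 179 sequences left out, 63 were read at 8 mM with 0 reads at 0 mM, 38 the other way round, 30 in both and 48 in neither.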

How the results depend on the processing

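No paired analysis was possible because each dose is 1 library. Main values were 52 sequences at least 2-fold higher, 75 lower and a median of -0.02. Without a filter they were 115 and 122, and at a mean of at least 100 they were 18 and 28, since fewer sequences pass. With equal table totals they were 37 and 107 with a median of -0.42, and with totals without miR472, miR482 and miR1448 they were 41 and 94 with a median of -0.28. The families at least 2-fold higher, 9 of 87, were 25 without a filter and 3 at a mean of at least 100, and those lower, 16, were 27 with equal totals and 9 at a mean of at least 100. A pseudocount of 0.5 or 5, a median of ratios, a filter on the 2 libraries alone, a single row for each sequence, a counting interval that leaves out 1, counting a listed 0 as 3 reads (chosen after seeing the data) and leaving out the RNA-like families and candidates kept these counts within 1.5 times wherever they were run. A change of sign was looked for only in listed family totals and list medians past 2-fold, and none was found. The scalings, which move log2 ratios by at most 0.40, and the pseudocounts could not have reversed such values. Depth limits the scarce sequences: at 0 mM a count of 0 allows 4.07 normalized reads, and 5 raw reads at 0 mM lie behind the ratios of gma-MIR4995-p3_1ss19GC and ptc-MIR481d-p5. The spread between plants is unknown.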
